A study of Drosophila melanogaster with 3 samples.

Results

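Among the reproducible binding peaks deposited for GFP-tagged Shaven (sv) in Drosophila larvae, 382 (9.99%) had their summit, the base of highest enrichment, outside every annotated gene and more than 500 bp from any annotated transcript start, and 3441 did not. These intergenic members were chosen by position alone, with coding and non-coding genes both counted as genes and transposable elements ignored. Applied to as many of the strongest peaks of each replicate as the optimal set holds, the same rule gave 431, 363 and 365 peaks, a share of 10.1% ± 1.01 (SD, n = 3). The remaining optimal peaks lay within 500 bp of a start (promoter peaks, 2250), in introns farther away (distal intronic peaks, 1105) or in exons (86).

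Chromatin immunoprecipitation with sequencing was done on whole wandering larvae of the third instar, sexes mixed, of a transgenic line with stable expression of the RD isoform of sv, tagged with GFP at the C-terminus. There was 1 group of 3 biological replicates and no other genotype, so every result below describes this line and no condition was compared. Per the labels' descriptions the antibody was one against GFP, although the antibody field gives sv, and a signal from whole larvae cannot be assigned to a cell type. The authors deposited an optimal set filtered for reproducibility between replicates, a relaxed list from the pooled reads and a relaxed list per replicate, with a shared control that was not analysed here. The optimal set held exactly the top-ranked peaks of the pooled list, so the pooled ranks and the replicate ranks below come from the same libraries.

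Shaven is the Drosophila member of the Pax2/5/8 group of paired-domain transcription factors, known for its part in the eye, in cone and pigment cells, and in the shaft and sheath cells of bristles. Intergenic DNA away from starts holds enhancers, which factors bind to regulate a gene at a distance, and insulators, which in flies are bound by zinc finger proteins such as CTCF. A binding peak alone does not show which gene, if any, it acts on, and the genes named below are neighbours, not targets.

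The sequences at the summits are shown for 5 of the 7 members with a match of the CTCF core, the one of 18 searched motifs with the largest ratio of its share at members to its share in eligible windows. Each is the summit with 50 bp on either side in the dm6 assembly, given 5′ to 3′ on the strand that carries the motif, with AGGTGGCGC in capitals.
Member at chr2L:9567449-9567549, minus strand: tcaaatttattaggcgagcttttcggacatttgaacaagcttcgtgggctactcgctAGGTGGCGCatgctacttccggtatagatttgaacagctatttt
Member at chr2L:14706295-14706395, minus strand: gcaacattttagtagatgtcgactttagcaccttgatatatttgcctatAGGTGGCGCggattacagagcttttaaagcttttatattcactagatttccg
Member at chrX:10832490-10832590, minus strand: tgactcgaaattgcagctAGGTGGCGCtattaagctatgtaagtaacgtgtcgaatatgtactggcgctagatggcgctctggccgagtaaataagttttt
Member at chr3L:8749002-8749102, plus strand: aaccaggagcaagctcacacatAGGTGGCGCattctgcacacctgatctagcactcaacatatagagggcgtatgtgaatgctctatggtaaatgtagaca
Member at chr3L:6904097-6904197, minus strand: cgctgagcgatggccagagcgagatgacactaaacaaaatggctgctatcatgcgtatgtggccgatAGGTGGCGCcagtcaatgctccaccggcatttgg
The first lies between jp, which encodes junctophilin, and a non-coding RNA gene, the second between osp and CG15282, and the third between a non-coding RNA gene and sbr, the mRNA export factor. The fourth lies between Prm, which encodes paramyosin, and CG13306, and the fifth between a non-coding RNA gene and Prat2, an enzyme of purine synthesis.

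For contrast, the second and the third strongest members carry neither the core nor any other of the 18 motifs within the same width. The first below lies between lncRNA:CR44603 and lncRNA:CR45695, 12505 bp from chinmo, a BTB zinc finger factor of developmental timing that is the nearest coding gene, and the second between CG3149 and a non-coding RNA gene near AdamTS-B.
Member at chr2L:1638703-1638803, plus strand: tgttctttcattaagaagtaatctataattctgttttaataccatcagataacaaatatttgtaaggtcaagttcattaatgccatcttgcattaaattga
Member at chrX:5696485-5696585, plus strand: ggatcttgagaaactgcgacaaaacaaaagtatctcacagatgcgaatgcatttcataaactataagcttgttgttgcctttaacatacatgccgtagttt
The GC content of these windows was 25.7% and 36.6%.

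The members were present throughout the ranking and sparse at its top. Their deposited signal ran from 72.8 to 675 with a median of 106, beside medians of 108 for distal intronic peaks, 117 for promoter peaks and 114 for all optimal peaks. Their ranks ran from 35 to 3807 with a median of 2129. Only 4 members were among the 100 strongest optimal peaks and 78 among the 1000 strongest.

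The share of peaks that fulfilled the rule was lowest among the strongest peaks and larger further down each list. Among ranks 1 to 955 it was 7.54% in each of the 3 replicates, and from rank 2868 to the end of the optimal set it was 11.8% ± 1.29 (SD, n = 3). Beyond the size of the optimal set, in the relaxed lists, it was 14.1% ± 0.817 at ranks 3824 to 10000 and 19.1% ± 0.207 at ranks 20001 to 30000. The replicates did not overlap between the first and the last of these rank ranges, while within the optimal set beyond rank 955 the differences were within the spread between replicates. Relaxed lists were deposited as input to the reproducibility filter and contain background. The rise within the optimal set was not particular to the members. Distal intronic peaks were 228 of the 955 strongest optimal peaks and 311 of the 956 weakest. Promoter peaks went the other way, with 637 and 503.

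**Figure D1:**
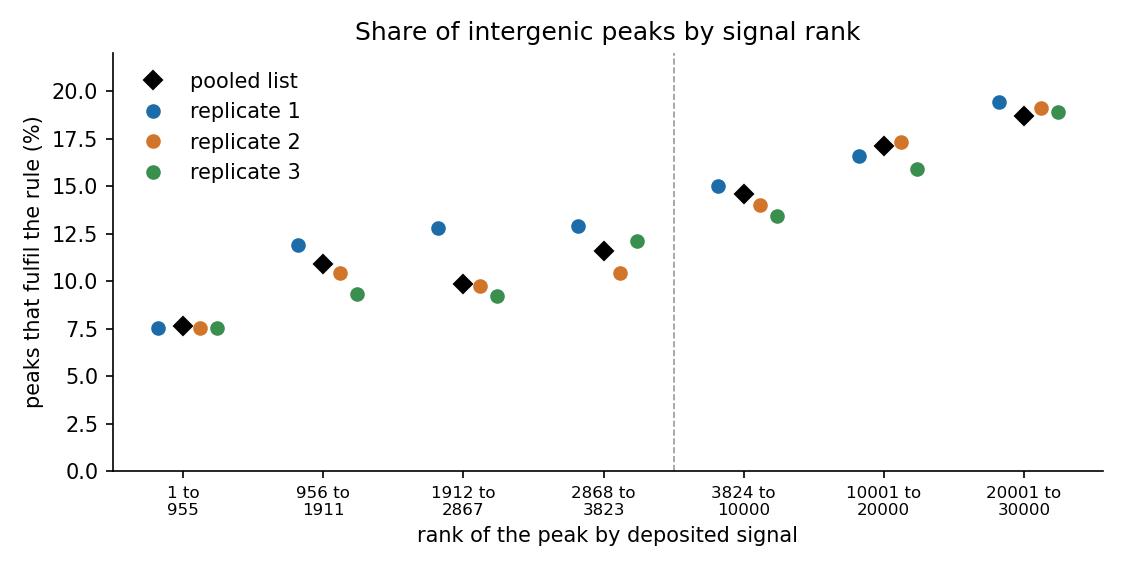
Share of peaks that fulfil the rule (per cent, vertical axis) in consecutive ranges of signal rank (horizontal axis), in the pooled list (diamonds) and in each replicate (circles); the dashed line marks the size of the optimal set. The share is 7.54% in every replicate at the top and between 18.9% and 19.4% at the bottom.

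Most members were recovered in the single replicates. A member was counted as found where a replicate had a summit within 200 bp among its strongest peaks, again as many as the optimal set holds. Replicate 1 held 336 members (88.0%), replicate 2 held 294 (77.0%) and replicate 3 held 293 (76.7%), a mean of 80.5% ± 6.42 (SD, n = 3). Distal intronic peaks of the same set were found at 85.9%, 79.2% and 76.7%, a mean of 80.6% ± 4.73. The difference of the means, members minus distal intronic peaks, was -0.0623 percentage points ± 2.15 (SD, n = 3; exact permutation test over the replicates, two-sided p = 0.750, where the smallest p that 3 replicates allow is 0.25). It was smaller than the spread between replicates.

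All 3 replicates held 220 members, 57.6%, beside 60.6% of all optimal peaks. A further 105 members were found in 2 replicates, 53 in 1 and 4 in none. Recovery followed rank. Among members at ranks 1 to 955 it was 72 of 73 in all 3 replicates, at ranks 956 to 1911 it was 93 of 104, at ranks 1912 to 2867 it was 41 of 94 and from rank 2868 on it was 14 of 111. Distal intronic peaks at the same ranks gave 99.1%, 89.6%, 41.6% and 8.04%, beside 98.6%, 89.4%, 43.6% and 12.6% of the members. When the whole relaxed lists, which contain background, were searched, 380, 376 and 377 members had a summit within 200 bp. That was a mean of 98.9%, only 0.253 percentage points above distal intronic peaks.

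Of the 4 members found in no replicate, 3 stood at ranks 3767, 3798 and 3807, and each had a replicate summit within 200 bp that ranked below the size of the optimal set. The other was the member of rank 539 in the gap between NijA and CG43245. Its signal was 220 and it lay 259 bp from a stronger pooled summit of rank 399. Each replicate had its nearest summit 247 to 271 bp away, at replicate ranks 279, 621 and 657. Each of these replicate summits lay closer to the stronger pooled summit than to this member. In replicates 1, 2 and 3 respectively, 4, 14 and 6 members shared their nearest replicate peak with another member, so the recovery of those members is not independent. Sharing with peaks outside the members was not counted, and 39 members had another optimal summit within 500 bp. A member could also count as found through a summit within 200 bp that was not its nearest. Several members did, among them ranks 2469 and 2952, with nearest summits at rank 23352 in replicate 3 and rank 23778 in replicate 1.

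**Figure D2:**
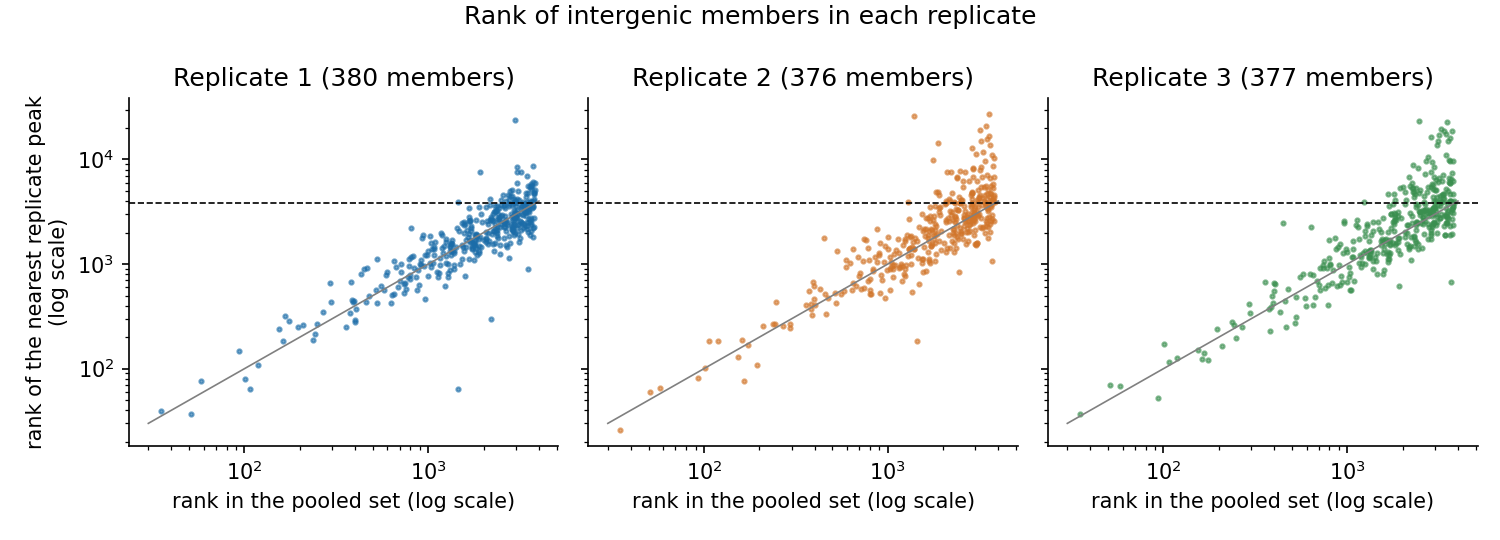
Rank of each member in the pooled set (horizontal, log scale) against the rank of the nearest summit within 200 bp in each replicate's relaxed list (vertical, log scale); the grey line marks equal ranks and the dashed line the size of the optimal set. The 380, 376 and 377 points lie near the grey line among the strongest members and spread across the dashed line beyond about rank 2000.

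The 20 strongest members were all found in all 3 replicates. The strongest, rank 35 and signal 675, lay on 2R in the convergent gap between Su(z)2, a Polycomb group gene, and CG13323, 11923 bp from the nearest start, and ranked 39, 26 and 37 in replicates 1, 2 and 3. On the same arm, a member of rank 107 lay between CG13321 and Psc, the other Polycomb group gene of that locus, and had replicate ranks 64, 185 and 115. A weaker member of rank 1450 lay 221 bp from it and had the same nearest peak in replicates 1 and 2, so its replicate ranks of 64 and 185 belong to the stronger summit. The fifth strongest member lay between blw, an ATP synthase subunit, and CycB, which encodes cyclin B, with replicate ranks from 80 to 172. Near tara, a transcriptional co-regulator of the cell cycle, the members of ranks 93 and 237 lay 2000 bp apart on either side of a non-coding RNA gene.

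The member of rank 154 lay between slp1 and slp2, paired forkhead genes of segmentation, 4320 bp from the nearest start, with replicate ranks 237, 129 and 151. A member of rank 166 lay 544 bp from the start of sp3, with the homeobox gene C15 on its other side, and one of rank 209 lay 3318 bp from the start of foxo, the forkhead factor of insulin signalling. RasGAP1, an inhibitor of Ras, had a member of rank 162 at 654 bp. Rank 195 lay between Atg13, an autophagy gene, and stck, an adaptor of integrin adhesion. Rank 268 lay between CG14762 and mir-4981, with Optix, a homeobox gene of the eye, as the nearest coding gene on that side, at 16891 bp. Rank 247 lay in a gap of 437 bp between the ends of Sol1 and Cyp9f2. The remaining ones of the 20 were next to COX7AL2 and CG31668 (rank 119), tRNA:Ile-TAT-1-2 and CG13898 (rank 242), lncRNA:CR45411 and lncRNA:CR43785 (rank 293), CG12643 and alpha-Man-Ia (rank 294), and NijA and CG43245 (rank 359).

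Some gaps held several members. The members fell into 298 gaps between neighbouring genes, of 6528 gaps that hold any eligible base, that is, any base that fulfils the rule. Of these, 242 held 1 member, 41 held 2 and 15 held 3 or more, the last with 58 members in all. The gap with the most lay on 2L between 2 non-coding RNA genes, lncRNA:CR44603 and lncRNA:CR45695, with RFeSP and chinmo as the nearest coding genes. It was 20910 bp long and held 7 members over 15120 bp, with signals of 591, 365, 262, 161, 150, 104 and 93.0, and 6 of the 7 were found in all 3 replicates. Its strongest member had replicate ranks 37, 60 and 70 and its second 286, 168 and 121. The members with signals 591 and 104 came from the same deposited peak interval and were 208 bp apart. The nearest replicate 3 summit to the weaker of them ranked 5604, below the size of the optimal set. It therefore counted as found in replicate 3 through another summit within 200 bp.

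The next gaps were on 3L. The gap between NijA, which encodes a ninjurin, and CG43245 held 6 members in 75047 bp, of which 2 were found in all 3 replicates. The gap between lncRNA:CR44363 and CG7560 held 6 in 19063 bp, of which 4 were found in all 3 replicates and the strongest, of signal 253, lay 24 bp from the end of the non-coding gene. The gap beside scyl, a growth inhibitor induced by stress, held 5. Close neighbours were not particular to the members. Another optimal summit of any class lay within 5 kb of 45.0% of members, 53.0% of all optimal peaks and 58.1% of distal intronic peaks. In windows of 100 kb, 15 windows with 4 or more members held 96 of the 382. The window with the most held 10 members, and 13, 8 and 7 of the replicates' own intergenic peaks.

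**Figure D3:**
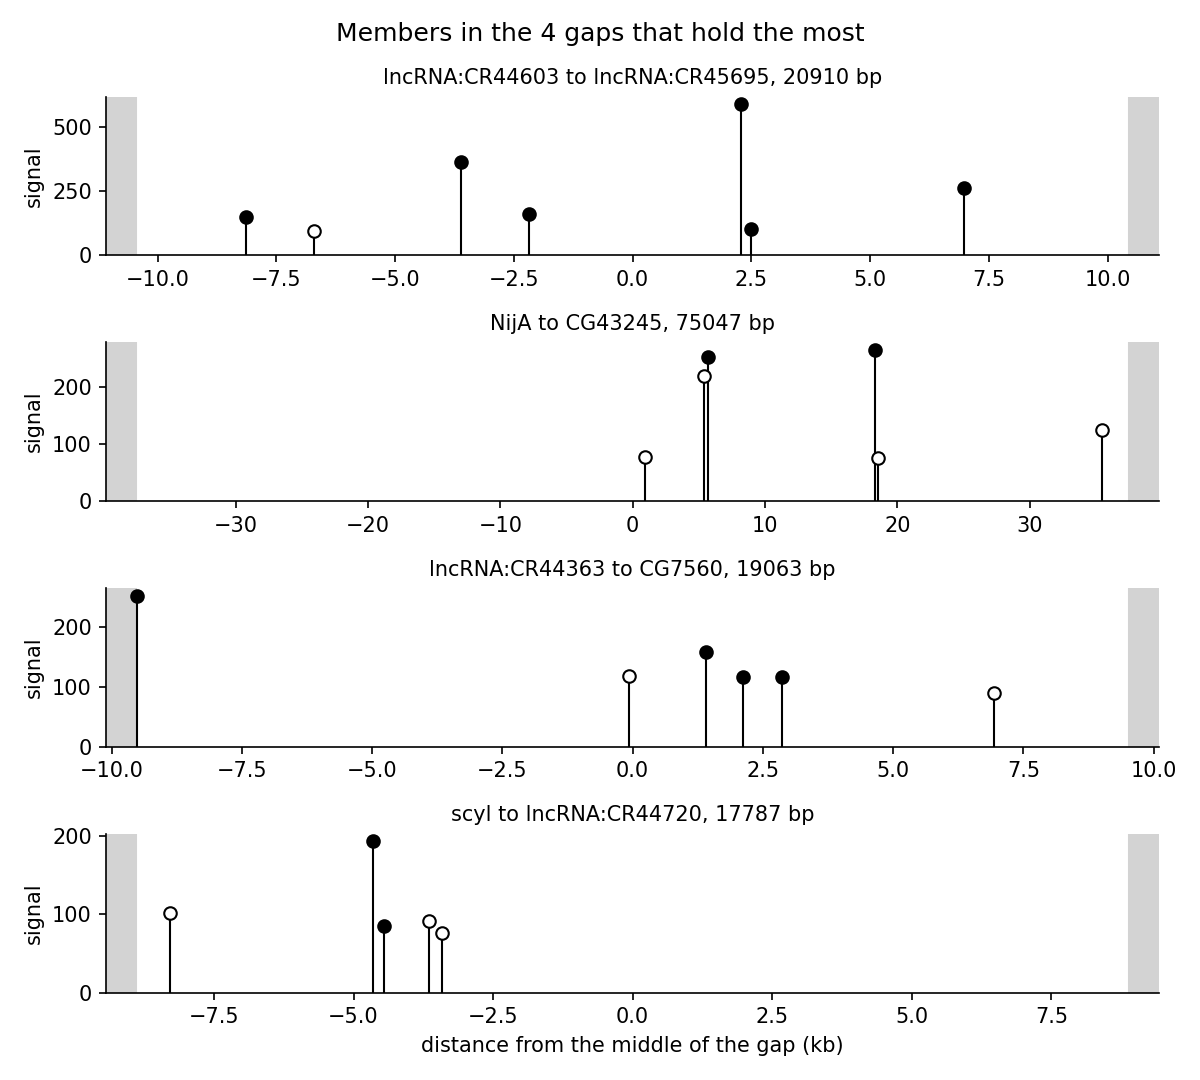
Members in the 4 gaps that hold the most, by distance from the middle of the gap (kb, horizontal) and deposited pooled signal (vertical); grey marks the flanking genes, filled circles members found in all 3 replicates and open circles the others. The 7 members between lncRNA:CR44603 and lncRNA:CR45695 include the strongest one drawn, of signal 591.

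The members lay closer to starts than eligible bases do, although the rule removed the first 500 bp. The median distance to the nearest start was 2404 bp, and 2297 bp ± 164 (SD, n = 3) for the replicates' own intergenic peaks, beside 5603 bp for the 36463641 eligible bases, all of which were counted. Within 1 kb of a start lay 20.7% of members (replicates 22.3% ± 1.28) and 7.75% of eligible bases. More than 10 kb from a start lay 10.7% of members (replicates 9.94% ± 1.19) and 35.5% of eligible bases. Density fell from 28.0 members per Mb at 501 to 1000 bp to 13.8 at 2001 to 5000 bp and 3.17 beyond 10000 bp, and in the replicates from 30.4 ± 1.28 through 13.0 ± 2.12 to 2.99 ± 0.644. These differences exceeded the spread between replicates at each step. Just inside the limit, members at 502, 505, 509, 516 and 523 bp had signals of 81.1, 75.1, 80.7, 164 and 75.4, and the intergenic summits just outside it, at 496, 493, 482, 472 and 471 bp, had 91.3, 320, 199, 113 and 114.

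Gene ends showed a smaller shift of the same kind. Within 1 kb of a gene end lay 85 members, 22.3%, and 24.7% ± 1.15 of the replicates' own peaks, beside 11.1% of eligible bases. Short gaps bring ends and starts together, so the share was also taken over members more than 2000 bp from a start, where 28 of 218, 12.8%, lay within 1 kb of an end (replicates 12.6% ± 0.240), beside 4.96% of such eligible bases. The gaps that held the members had a median length of 8854 bp, and the median eligible base lay in a gap of 19415 bp.

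Gap orientation differed in the same direction. Divergent gaps, in which both neighbours start at the gap, held 110 members, 28.8% (replicates 28.8% ± 2.12), and 20.3% of eligible bases. Tandem gaps held 49.7% of members and 50.4% of bases, and convergent gaps, between gene ends, 21.5% of members (replicates 23.6% ± 1.48) and 25.6% of bases. Per Mb of eligible bases, divergent, tandem and convergent gaps held 14.9, 10.3 and 8.80 members. At 501 to 2000 bp from a start the densities were 25.1, 22.9 and 14.5 members per Mb in divergent, tandem and convergent gaps, while the replicates' own peaks gave 25.7 ± 2.92, 23.5 ± 2.78 and 19.6 ± 1.70, which left divergent and tandem gaps within the spread. The values of convergent gaps, 17.9 to 21.3 in the replicates, lay below the 22.9 to 28.7 of divergent gaps, and the pooled 14.5 lay below all 3 replicates. At 2001 to 5000 bp, divergent and convergent gaps had nearly the same density, 15.4 and 15.1, within the spread between replicates. Beyond 5000 bp the densities were 6.95, 4.18 and 5.37 (replicates 6.29 ± 0.993, 4.22 ± 0.891 and 5.93 ± 0.678) in divergent, tandem and convergent gaps.

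**Figure D4:**
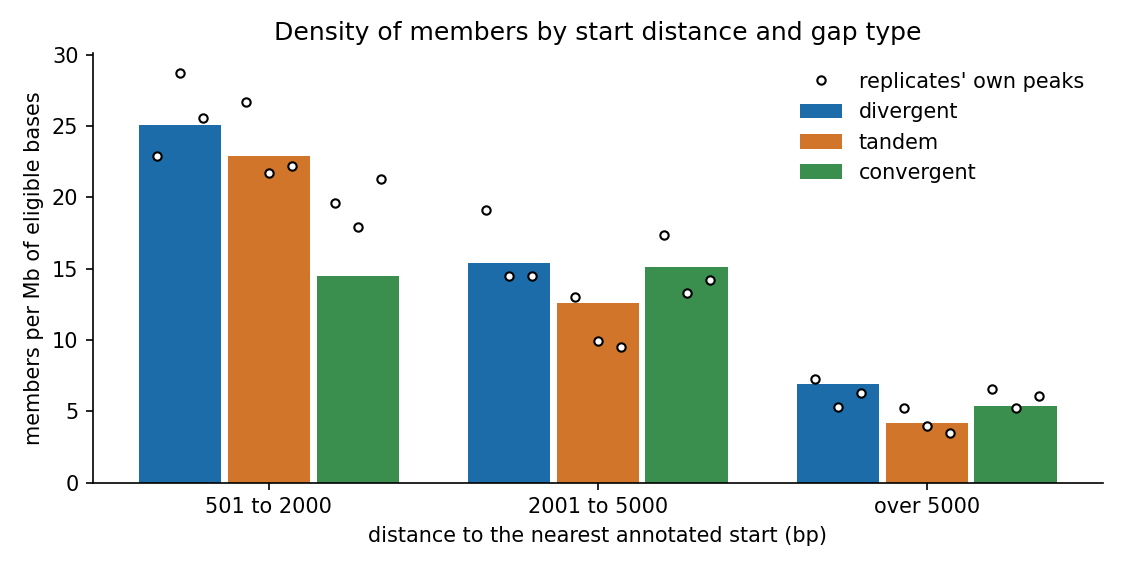
Members per Mb of eligible bases (bars) by distance to the nearest annotated start (horizontal) and gap type (colour); open circles are the same density for the replicates' own intergenic peaks. Every gap type has its lowest density beyond 5000 bp, from 4.18 to 6.95 members per Mb.

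Members were unevenly spread over the chromosome arms. Per Mb of eligible bases, 2L held 14.0 members (replicates 14.2 ± 0.873, SD, n = 3), 3L 13.3 (12.7 ± 3.03), 2R 7.52 (7.39 ± 1.23) and X 6.97 (7.84 ± 0.109). On 3R the replicates gave 9.65 ± 0.261, between these pairs. The X and 2R were below 2L in each replicate, while 3L overlapped with 2L and X overlapped with 2R. The value on 3L rested partly on replicate 1, which gave 16.2 beside 11.2 and 10.7 in the others. The small chromosome 4 held 5 members in 0.245 Mb, 20.4 per Mb (replicates 20.4 ± 4.08). This was the highest density of any arm but rests on few members. Of its 13 optimal peaks 38.5% were members. Transposable elements covered 10.8% of eligible bases and held the summit of 2 members, 0.524%, and of 0.183% ± 0.159 of the replicates' own intergenic peaks. Reads from repeated elements cannot always be placed, and the labels do not say how the authors treated them.

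Among neighbours, a nearest gene body on either side, 401 of 13945 protein-coding genes stood next to a member, 2.88%. Of 10 Pax genes 5 did: Poxm beside a member of rank 873 at 587 bp, toy and ey, the Pax6 genes of eye formation, beside members of ranks 1817 and 2588 on chromosome 4, and toe and eyg on either side of the member of rank 2948. The toy member had replicate ranks 1435, 3553 and 2679, the ey member 1781, 3605 and 3152 and the eyg member 3179, 2707 and 3488, so all stood within the size of the optimal set in each replicate. Poxm had 564, 2161 and 1403. These 4 members lay in 0.0756 Mb of eligible bases beside Pax genes, 52.9 per Mb, and each replicate held 4 intergenic peaks there. This density was not matched for start distance or arm. The Poxm and ey members lay 501 to 1000 bp from a start, where the density over all members was 28.0 per Mb. On chromosome 4 it was 20.4 per Mb. The Poxm member also lay 209 bp from a promoter peak of rank 661. Whether start distance or arm accounts for the value was not tested. No member lay next to sv itself.

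Other lists of developmental regulators followed. Of 54 segmentation and imaginal disc regulators 12 (22.2%) stood next to a member, led by slp1, slp2 and SoxN, a Sox factor of the nervous system, and of 49 homeobox patterning genes 8 (16.3%), led by C15, en, the selector of posterior compartments, and bin, a forkhead-domain factor of the visceral muscle lineage that the list also holds. The member beside en had signal 150 and replicate ranks 1976, 997 and 1221, and that beside SoxN 195 and 601, 1177 and 683. Only 7626 of all 13945 coding genes had any eligible base beside them, so their 2.88% includes genes that no member could stand next to. Of the segmentation and disc regulators 50 had such bases, of the homeobox genes 48 and of the Pax genes 9. A list with longer gaps has more bases that could hold a member, so the members were also set against the bases beside each list. Beside segmentation and disc regulators there were 17.4 members per Mb (replicates 20.2 ± 2.13), and beside all coding genes 9.99 (10.1 ± 1.03). Beside homeobox genes there were 13.4 (14.6 ± 3.23).

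The lists closest to the known roles of Shaven are short, so each share rests on few genes. Of 25 sensory organ and bristle lineage genes 2 (8.00%) stood next to a member, vvl (rank 1711) and cpo (rank 1890). Of 22 genes of eye cone and pigment cells 3 (13.6%) did, aop, which encodes the Yan repressor (rank 1381), toy and ey. Both toy and ey are also on the Pax list and aop is on the EGFR and Ras list, so these lists share members. Beside the sensory organ and bristle list there were 3 members in 0.184 Mb, 16.3 per Mb (replicates 23.5 ± 8.28). Beside the cone and pigment cell list there were 4 in 0.248 Mb, 16.1 per Mb (17.5 ± 2.33). None of 19 genes of the bristle shaft and apical structures did, with 1 such intergenic peak in replicate 3. Of 18 EGFR and Ras pathway genes 2 (11.1%) did, with 4 members in the 0.148 Mb beside the list (replicates 29.3 ± 3.90 per Mb). Of 21 Notch pathway genes 1 (4.76%) did. Its list had 1 member in 0.0577 Mb, 17.3 per Mb (replicates 17.3, 17.3 and 34.7, from 1, 1 and 2 peaks). Among them, sty, the Sprouty inhibitor of receptor tyrosine kinases, stood next to the member of rank 393, aop next to that of rank 1381, and E(spl)malpha-BFM, a Notch target, next to that of rank 776. Of 18 ecdysone response genes 2 (11.1%) did, Blimp-1 (rank 2593) and Hr38 (rank 3777), with 2 members in 0.0854 Mb, 23.4 per Mb (replicates 19.5 ± 6.76). With the nearest protein-coding gene on each side in place of the nearest gene, Notch pathway genes next to a member were 3 and segmentation and disc regulators 19, beside 3.67% of all coding genes. Next to members stood RpS23 and RpL17 of 85 ribosomal protein genes (2.35%) and 3 of 125 cuticle protein genes (2.40%) led by Cpr76Ba, shares near that of all coding genes. Beside ribosomal protein genes there were 4.57 members per Mb (replicates 7.61 ± 1.32), and beside cuticle protein genes 11.5 (10.2 ± 7.95). Of 179 chemoreceptor genes 3 (1.68%) did, led by Gr89a, with 3.38 members per Mb (4.13 ± 1.30), and none of 14 heat shock genes did.

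The sequence at member summits was rich in A and T. Over the summit and 50 bp on either side, mean GC content was 34.2%, and 35.0% ± 0.948 (SD, n = 3) for the replicates' own intergenic peaks, beside 41.4% and 41.3% in windows 1000 bp to the left and right and 40.8% over eligible bases. At 214 members (56.0%) it was lower than in both side windows. Distal intronic summits had 33.1% and promoter summits 36.2%, so the dip was also present in these classes. GC content around members rose to 43.7% at 250 bp to the left and 44.0% to the right before it returned to 41.6% and 41.8% at 500 bp. The 5 sequences of 6 bases with the largest excess over the side windows, of 2080 compared, were made of A and T alone. AAAATA was present at 137 members (35.9%), beside 75 and 93 side windows and 36.5% of all optimal summits. AAAAAT followed at 135 members, then TAAAAA at 119, then TTAAAA at 111 and last ATATTA at 77, the last beside 32 and 42 side windows.

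**Figure D5:**
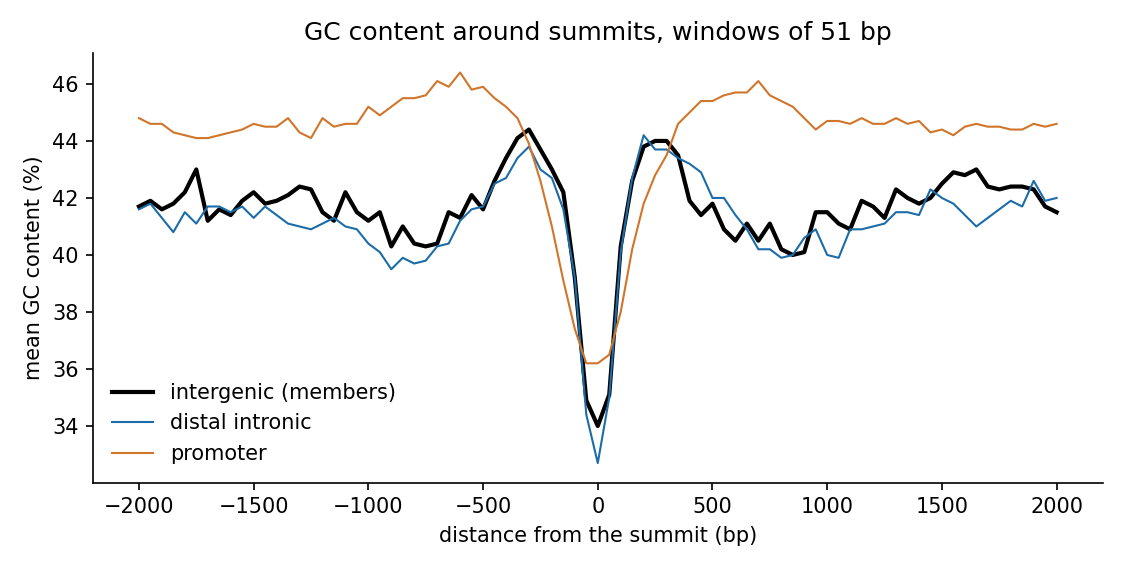
Mean GC content (per cent, vertical) in windows of 51 bp by distance from the summit (bp, horizontal) for members, distal intronic peaks and promoter peaks of the optimal set. All classes have their minimum near the summit, and members reach 34.0% there.

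Of the 18 motifs, searched as exact letters on both strands, most were no more frequent at member summits than beside them. The homeodomain core TAATTA was at 31 members (8.12%), beside 33 and 34 side windows, 7.45% of eligible windows and 9.73% of all optimal summits. The Pax core GTCACGC, a part of the sites bound by paired domains, was at 1 member, beside 1 and 0 side windows and 0.366% of all optimal summits. TATCGATA, the site of the promoter factor DREF, was at 1 member, beside 2.01% of all optimal summits, and GGTCACACT, the promoter element motif 1, at 1 member, beside 1.20%. The repeat CACACACA was at 3 members beside 12 and 13 side windows and 1.02% of all optimal summits, the E-box CAGCTG at 7 beside 20 and 11 and 4.89%, and the E-box CAGGTG at 7 beside 21 and 8 and 2.69%. TGATAAG, the GATA factor site, was at 12 members (3.14%) beside 10 and 5 side windows, 1.23% of eligible windows and 1.83% of all optimal summits. CAGGTAG, the Zelda site, was at 6 (1.57%) beside 2 and 4, 0.430% and 0.523%. The Runx site TGTGGTT was at 3 members (0.785%), beside 1.18% of all optimal summits. GTGGGAA of the Notch effector Su(H) was at 3 (0.785%), beside 1.02% of all optimal summits. CCGGAAG of ETS factors was at 4 (1.05%), beside 1 and 4 side windows and 0.523% of all optimal summits. TGACTCA of AP-1 was at 2 (0.524%), beside 0.942%, and the GAGA factor repeat GAGAGAG at 1 (0.262%), beside 1.28%. A run of 8 A was at 18 members (4.71%) beside 29 and 20 side windows and 7.11% of all optimal summits. The TATA element TATAAAAG was at 6 (1.57%), beside 4 and 5 side windows and 0.968% of all optimal summits. AACCGGTT, the Grainy head site, was at 0 of 382 members, with an upper bound of 0.961% by the same kind of exact 95% binomial interval as is given for the CTCF core, beside 0.0785% of all optimal summits. That these letters are absent from a window says nothing of the factor.

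The CTCF core AGGTGGCGC was at 7 members, 1.83% (95% exact binomial interval 0.740 to 3.74, counting error only), beside 1 and 0 side windows and 0.0457% of the 359004 eligible windows. The replicates' own intergenic peaks held it at 1.16%, 1.38% and 1.92%, 1.49% ± 0.390 (SD, n = 3). It was at 3 distal intronic summits (0.271%) and 4 promoter summits (0.178%), so that 7 of the 15 matches over all optimal summits (0.392%) fell on members, which are 9.99% of the peaks. Where a C precedes it, the core also contains the E-box CAGGTG. The members with the core ranged from rank 268 to rank 3723. Those at ranks 268, 382, 1224 and 1666 were found in all 3 replicates, those at 2189 and 2302 in 2 and that at 3723 in 1. The member beside jp, of signal 259, had replicate ranks 677, 372 and 227, and that beside osp, of signal 146, had 1483, 805 and 1270.

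After these counts were seen, 4 further strings were counted in the same way. AGATGGCGC, a variant of the CTCF core, was at 5 members (1.31%), beside 0 and 0 side windows, 0.0682% of eligible windows, 0.452% of distal intronic summits and 0.267% of promoter summits. One of the 5 also held the core, so core or variant was at 11 members, 2.88% (replicates 2.72% ± 0.763), beside 0.113% of eligible windows, and at 17 of 902 intergenic summits (1.88%) at pooled ranks 3824 to 10000, which were not used in choosing the string. The strongest of the 5, of rank 920, lay between Sox21a and Sox21b, Sox factors of which the first acts in intestinal stem cells, with replicate ranks 1756, 787 and 771.
Member at chr3L:14111603-14111703, plus strand, with AGATGGCGC in capitals: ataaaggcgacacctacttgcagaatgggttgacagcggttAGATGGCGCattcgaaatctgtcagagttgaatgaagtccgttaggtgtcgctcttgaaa
The third sequence printed for the core, beside sbr, is the one with both and shows the variant in lower case.

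The other strings came from the comparison with the side windows. Of 6296 sequences of 7 bases with at least 3 G or C, AGTGTAG and CACTGAG had the largest excess. AGTGTAG was at 12 members (3.14%) beside 0 and 1 side windows and 0.714% of eligible windows, and CACTGAG at 13 (3.40%) beside 1 and 3 and 0.881%. They were chosen for this excess, so the counts at members and side windows are a description, and the counts that did not choose them are those in other peaks. Intergenic summits at pooled ranks 3824 to 10000 held AGTGTAG at 2.44% and CACTGAG at 3.55%, and distal intronic summits at 1.81% and 2.53%. Promoter summits held AGTGTAG at 1.60% and CACTGAG at 0.933%. At 2 members both occurred, overlapping as 1 element, as below with both in capitals.
Member at chr2L:19377555-19377655, minus strand: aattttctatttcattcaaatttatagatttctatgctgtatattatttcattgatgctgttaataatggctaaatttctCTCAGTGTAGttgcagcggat
Member at chr2L:11209023-11209123, minus strand: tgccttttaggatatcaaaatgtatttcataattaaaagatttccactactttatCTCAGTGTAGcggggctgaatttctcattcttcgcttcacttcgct
The first lies between CG17349 and CG17350 at rank 2865 and the second between a non-coding RNA gene and ab, a BTB zinc finger factor, at rank 2913. AACTTA, the sixth of the 6-base sequences by excess and the only one of the leading 10 with a G or C, was at 61 members (16.0%; replicates 12.8% ± 1.46) beside 21 and 24 side windows and 6.78% of eligible windows, and at 9.42% of intergenic summits at ranks 3824 to 10000.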

How the data were processed

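Per the labels, the 3 samples are biological replicates of 1 group. The peak lists and their dm6 positions are as deposited by the authors; the labels give no aligner, caller, reproducibility threshold or depth, so no depth-based error is given. The deposited signal value per peak is the authors' own, comparable only within a list, and was used to rank. The deposited summit offset (other unit, bases from the peak start) gave summits, counted from 1. Gene models were those of Ensembl (BDGP6.54), sequence the Release 6 assembly, arms X, 2L, 2R, 3L, 3R and 4. Python 3.11.15, NumPy 2.4.6, SciPy 1.17.1 and matplotlib 3.10.9 were used, and the functions were tested on simulated data. Replicate error is the SD over the rule applied to as many of each replicate's strongest peaks as the optimal set holds. Named genes flank the 20 strongest members, lead each list by rank, or flank the gap with most members. The members of ranks 539, 1450, 2469, 2952, 3767, 3798 and 3807 were named after their values were seen. So were the gaps after the first and the genes beside motif matches. Members and lists were chosen with earlier results of these data known. Cuticle, ribosomal and chemoreceptor genes were matched by symbol patterns. No p-value over peaks was computed.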

Additional observations from a re-analysis of the deposited data

How the results depend on the processing

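No paired analysis of conditions was possible because the study has 1 group. Pairing was used only in the test of recovery, which compared members and distal intronic peaks within each replicate. Of 72 recomputed values 38 kept to the spread between replicates, or within 1.5 times for counts, 31 moved and 3 changed the sign of a difference; the cause was not tested. With protein-coding genes only, divergent gaps held 34.2% of members, 16.4% lay within 1 kb of a gene end, the median start distance was 4010 bp and the density 12.0 per Mb. Listed genes next to a member were 39 of 621 (6.28%), beside 2.88% of all coding genes. With the nearest protein-coding gene on each side they were 55 (8.86%, beside 3.67%), and by the nearest coding start 33 (5.31%, beside 2.12%). At 1000 bp from a start, divergent gaps held 26.1%. The strongest 1911 optimal peaks gave 177 members, 4.85 per Mb, 32.2% divergent, a median of 2163 bp, 43 members with any motif and 93.2% found in all 3 replicates. Windows of 100 bp on either side of the summit gave a GC content of 35.7% and 182 members with any motif, against 94 with 50 bp. Counts with any motif are given without a share over other windows, so they show only how a setting changes them. Members found in all 3 replicates were 50.8% with summits within 100 bp, and 28.5%, 87.7% and 97.1% with 1911, 7646 and all replicate peaks. The difference in recovery from distal intronic peaks turned positive with summits within 100 bp (75.9% of members found, 0.381 points), with all replicate peaks (98.9%, 0.253 points) and without replicate 2 (82.3%, 1.02 points). Requiring a member in both other replicates as each replicate was left out gave 239 to 266 members, median signals of 126 to 134, 28.8% to 29.3% divergent, 23.7% to 25.4% near a gene end, median start distances of 2186 to 2324 bp, 6.55 to 7.29 members per Mb, GC contents of 34.0% to 34.2%, 55 to 65 members with any motif and, over the remaining replicates, a mean recovery of 76.8% to 82.5%. Leaving out members within 500 bp of a stronger one, an alternative added after the data were seen, kept 366 members and moved no value. Depth is unknown, so weak members cannot be told from missed ones.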
